A study of Mus musculus with 4 samples.

Results

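The genes described here encode the proteins of the cytosolic ribosome. They were taken from the deposited gene table by symbol: names that start with Rpl or Rps and a digit, Rplp0 to Rplp2, and Rpsa. The Rps6k kinases and symbols that contain -ps, which mark pseudogenes, were left out. The rule found 91 genes among the 27179 listed, 55 with large-subunit and 36 with small-subunit symbols. Of these, 77 are the canonical proteins (46 large, 31 small). The other 14 are paralogs, retrogenes and Rps19bp1, which encodes a binding protein of RPS19 and not a ribosomal protein. Among the 14, Rpl6l is annotated as a pseudogene and Rps4l as a transcribed pseudogene. Their symbols lack -ps, so the rule kept them. Rpl6l was tested, at 349 and 350 CPM in control and 353 and 353 CPM in conditioned medium. The rule does not reach ribosomal components under other names, such as Fau (protein eS30) and Rack1, which were treated separately.

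The cells were mAEC, a mouse aortic endothelial cell line used as a culture model of the artery's inner lining. The control group was cultured in normal medium. The conditioned medium group was given supernatant of macrophages positive for both CD68, a marker of that lineage, and the inflammatory cytokine TNFα. There were 2 libraries in each group, called biological replicates in the series; no genetic change is given for either group, and the sources used here do not state the dose or time of exposure. The labels do not say whether replicates were separate cultures, so the p-values measure only the spread between these libraries. Library totals ran from 13815695 to 18005840 gene counts. All 10 endothelial markers listed had counts, with summed levels of 6758 to 7015 CPM (counts scaled to library size). Of 10 macrophage markers 7 had counts, summing to 227 to 262 CPM, while Adgre1, C1qa and Mrc1 were at 0. Most of that sum was Cd68, with 3247, 3626, 3337 and 4491 counts. Ptprc, Csf1r, Itgam and Fcgr1 had only 0 to 3 counts in each library, and Cd14 and Lyz2 had 59 to 117. Summed levels were 226 to 245 CPM for smooth muscle markers, mostly Smtn (3312, 3429, 3319 and 4269 counts). Acta2, Myh11 and Cnn1 had 0 to 10 counts in each library. Counts were present for 5 of 7 fibroblast and 3 of 6 epithelial markers. Both of these sums were higher in both conditioned medium libraries: 31.3 and 34.2 CPM in control against 39.95 and 39.8 CPM for fibroblast markers (Col1a2 and Lum at 0), and 6.61 and 7.66 CPM against 9.48 and 9.27 CPM for epithelial markers (Cdh1, Krt14 and Krt5 at 0). The fibroblast sum was mostly Pdgfra (374, 395, 437 and 578 counts) and Fbln1 (60, 61, 81 and 99), while Col3a1 was lower (29, 27, 20 and 24). The epithelial sum was mostly Krt18 (99, 109, 131 and 166 counts), with Krt8 and Epcam at 0 to 2 counts. The part of these markers in the results was not tested.

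Ribosomal proteins assemble with ribosomal RNA into a small subunit, which decodes the message, and a large subunit, which joins amino acids. Their genes are among the most highly expressed in growing cells and are usually kept in balance with each other. Their messages mostly begin with a 5′ terminal oligopyrimidine (TOP) tract, a C followed by a run of C and T, through which mTORC1 signalling and LARP1 set how much of each message is translated. Control through the TOP tract acts largely on translation, so message counts need not follow it.

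The sequences at the starts of these genes carry a pyrimidine run, and the printed windows show it. RefSeq promoters of the GRCm38.p6 assembly held 69 of the 91 genes, and each was searched from 30 bases before to 50 bases after the annotated start for its longest unbroken run of C and T. Of several annotated starts, the one with the longest run was used. The lines below give 30 bases around that run, read along the transcribed strand, 5′ to 3′, with the run in capitals. The first 8 were picked as runs of 10 or more bases from both subunits, the next 5 because their genes passed the test between groups, and the last as a gene whose run is shorter than 8 bases.
Rpl7a (large subunit; chr2:26910789-26910818, plus strand): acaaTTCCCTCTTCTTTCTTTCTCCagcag
Rpl27a (large subunit; chr7:109519186-109519215, plus strand): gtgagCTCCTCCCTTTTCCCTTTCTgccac
Rpl35 (large subunit; chr2:39005115-39005144, minus strand): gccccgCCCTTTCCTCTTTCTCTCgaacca
Rpl15 (large subunit; chr14:18270967-18270996, minus strand): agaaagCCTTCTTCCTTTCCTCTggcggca
Rpl11 (large subunit; chr4:136053358-136053387, minus strand): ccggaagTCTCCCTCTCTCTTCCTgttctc
Rplp2 (large subunit stalk; chr7:141447636-141447665, plus strand): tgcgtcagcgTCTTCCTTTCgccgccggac
Rps6 (small subunit; chr4:86857349-86857378, minus strand): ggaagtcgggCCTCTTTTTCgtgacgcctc
Rps18 (small subunit; chr17:33955648-33955677, minus strand): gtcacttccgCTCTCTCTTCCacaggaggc
Rpl13a (large subunit, called; chr7:45128722-45128751, minus strand): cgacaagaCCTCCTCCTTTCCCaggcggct
Rpl18 (large subunit, called; chr7:45718062-45718091, plus strand): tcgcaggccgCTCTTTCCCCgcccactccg
Rpl22l1 (paralog, called; chr3:28805499-28805528, plus strand): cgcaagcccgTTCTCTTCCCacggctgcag
Rps21 (small subunit, called; chr2:180257399-180257428, plus strand): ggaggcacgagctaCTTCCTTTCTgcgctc
Rps23rg1 (retrogene, called; chr8:3567986-3568015, plus strand): ttgcagagagTCTTTCTCTCaccccagata
Rpsa (small subunit, run under the minimum; chr9:120127774-120127803, plus strand): tccggccgcccgTCCTTTCgcgctacccgg

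A run of at least 8 pyrimidines was present at 52 of these 69 genes (75.4%), against 3121 of 10142 tested genes with an entry (30.8%) and 32.3% of all 27025 genes in the promoter table. The median longest run was 10 bases in ribosomal protein genes and 6 in tested genes. In Rpl7a, the longest printed, the run spans 21 bases and begins 14 bases before the annotated start. In Rpl13a the run of 14 bases begins 2 bases after the start, and in Rps21 the run of 10 bases begins 34 bases after it. An annotated start can differ from the start used in these cells, so a run in this window is not a measured TOP tract. The letters CTTTC, which recur in the printed runs, stood on the transcribed strand in 49.3% of the ribosomal protein genes and in 11.8% of all genes; on the other strand the shares were 13.0% and 11.4%. The letters CCGGAAG, the core of an ETS-type site, were found on either strand within the whole 300 bases in 37.7% of the ribosomal protein genes, 20.01% of tested genes and 9.93% of all genes. Both motifs were chosen after the sequences were read. CTTTC counts overlap the pyrimidine runs by construction.

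Read per kilobase of annotated transcript, every canonical ribosomal protein gene lay above the 90th percentile of the tested genes with a length (77 of 77). Their median level was 537 CPM per kilobase, and that of the other tested genes was 10.2. Rps24 was highest at 1329 CPM per kilobase over the 4 libraries, followed by Rps7 at 1281, Rpl23a at 970, Rpl19 at 910 and Rpl7 at 889. Rps24 and Rps7 are small-subunit proteins, and RPL19, RPL23A and RPL7 belong to the large subunit. The lowest canonical gene was Rpl22 at 86.0 CPM per kilobase; its paralog Rpl22l1 stood at 90.2. Rps27l, a paralog of Rps27 known as a p53 target, reached 77.3 CPM per kilobase, where Rps27 reached 663. Rpl7l1, a nucleolar paralog of Rpl7, had 38.0 and Rps19bp1 had 11.1 CPM per kilobase. The lengths are medians over annotated transcripts. They are long for Rps15a (5130 nt) and Rps20 (3706 nt), whose levels of 94.2 and 128 CPM per kilobase are therefore low estimates if shorter forms dominate. The same holds for Rpl22, with 2048 nt for a coding sequence of 384 nt, where Rpl22l1 has 538.5 nt. Not divided by length, Rpl22 measured 188, 162, 171 and 184 CPM and Rpl22l1 48.7, 39.5, 52.6 and 53.5 CPM.

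The tissue-restricted paralogs and Rps4l were at or near 0. Rpl10l and Rpl39l, retrogenes known from testis, had 0 counts in all 4 libraries. Rpl3l, the paralog of Rpl3 known from heart and skeletal muscle, had 1, 0, 1 and 0 counts. Rps4l, annotated as a transcribed pseudogene, had 0, 0, 0 and 1. A count of 3 corresponds to between 0.167 and 0.217 CPM here, which is the level below which nothing can be said. These 4 genes fell below the filter on low counts and were not tested. The housekeeping partners were abundant: Rpl3 measured 995 and 966 CPM in the control and 917 and 950 CPM in the conditioned medium libraries, and Rpl10 measured 614, 596, 604 and 621 CPM. Of the 91 genes, 87 were tested.

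Summed over all 91 genes, ribosomal protein messages made up 3.97% and 3.67% of gene counts in the control libraries and 3.74% and 3.88% in the conditioned medium libraries. The conditioned medium values lie between the control values. The means were 3.82% ± 0.211 and 3.81% ± 0.0991 (SD, n = 2 each), and with 2 libraries against 2 no exact permutation test can go below a two-sided p of 0.333. In bulk RNA a change in cell number and a change in RNA per cell cannot be told apart, and a share says nothing of the absolute amount.

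Between the groups the ribosomal protein genes stayed close to equal. The median log2 fold change (conditioned medium over control) was 0.01 over the 87 genes and 0.00 over all 13897 genes tested, and 49 of the 87 values were above 0. The values ran from -0.22 for Rps27l to 0.27 for Rpl22l1, and no gene reached a change of 1.25-fold. For 81 of the 87 genes the whole 95% interval lay within 1.25-fold in either direction. The median absolute log2 fold change was 0.06, against 0.13 over all genes. By edgeR's quasi-likelihood test with Benjamini-Hochberg adjustment over all genes (called at an adjusted p under 0.05), 9 of the 87 differed (10.3%), where 16.8% of all genes tested did. Of these, 7 were higher in conditioned medium (8.05%, against 8.53% of all genes) and 2 were lower (2.30%, against 8.23%). The 2 groups' CPM values did not overlap for 27 genes (31.0%, against 57.2% of all genes), 18 higher and 9 lower. At an unadjusted p under 0.05 there were 9 higher and 10 lower. With all 4 libraries the share of genes called was not above the background in either direction. It was above the background, in opposite directions, when either control library was left out: 42.5% without control replicate 1, mostly higher (17.1% of all genes), and 49.4% without control replicate 2, mostly lower (21.9% of all genes).

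**Figure D1:**
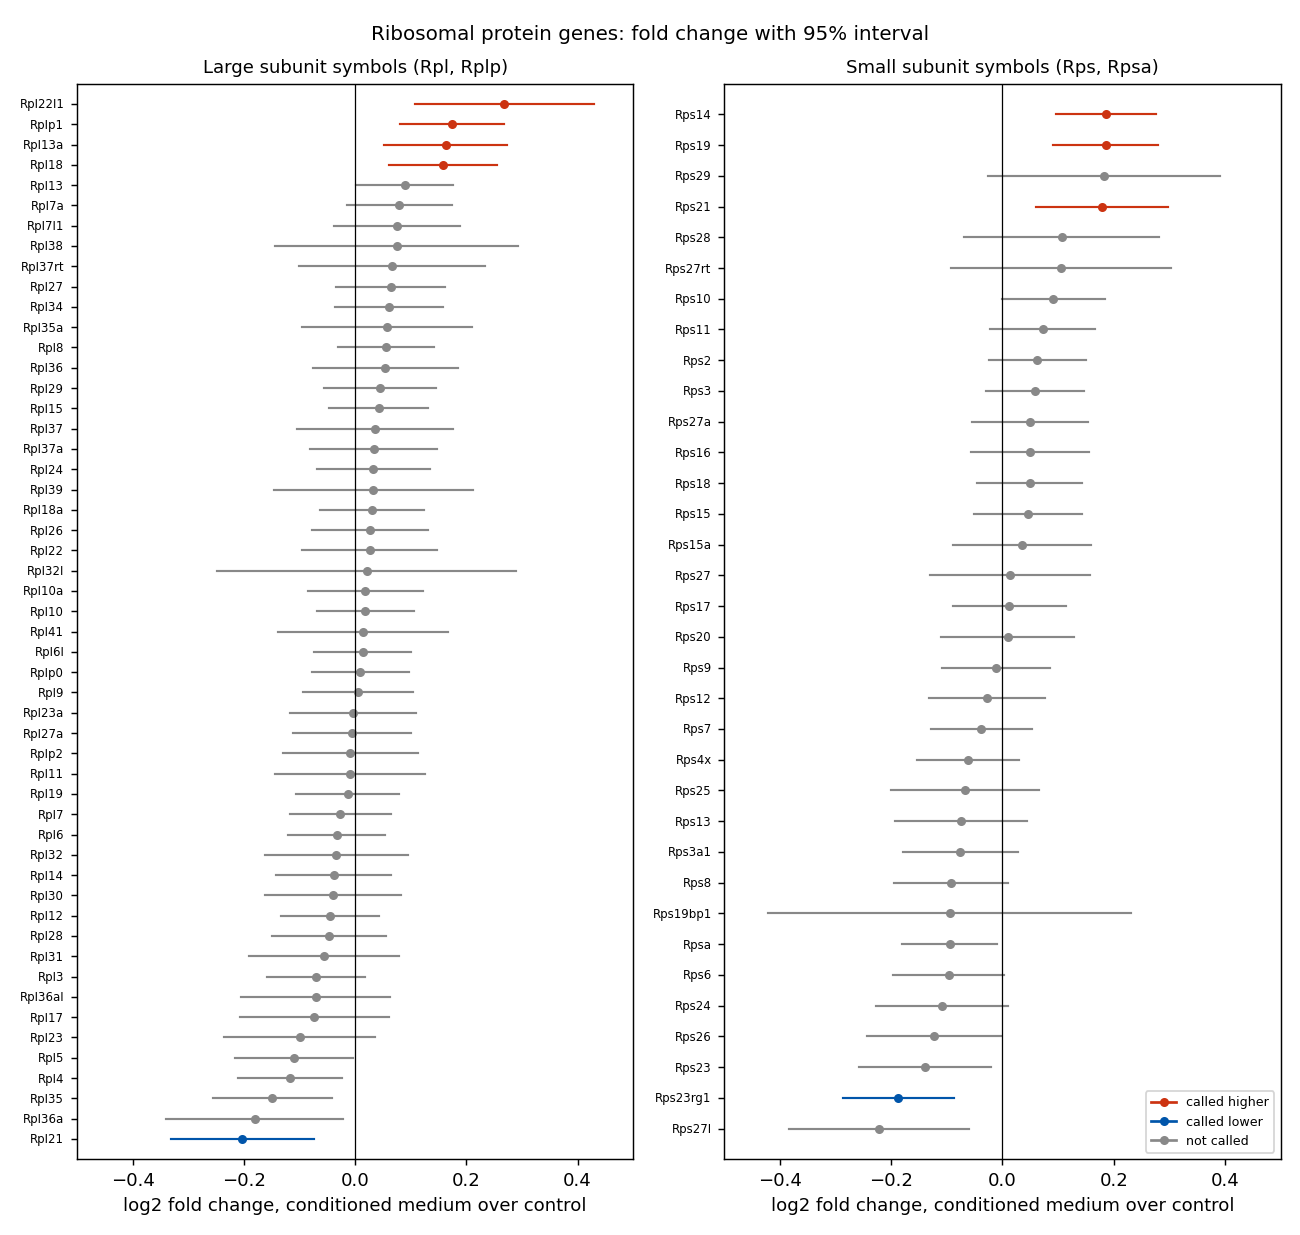
Log2 fold change of conditioned medium over control (horizontal axis) for 86 of the 87 tested genes, large-subunit symbols on the left and small-subunit symbols on the right, with 95% intervals from edgeR (n = 2 libraries per group). Points lie between -0.22 and 0.27; the 7 genes called higher and 2 called lower are coloured.

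Among the large-subunit symbols 4 of 52 were called higher and 1 lower, against 8.53% and 8.23% of all genes. Their median was 0.02. The P stalk, the flexible arm that recruits translation factors, is built from RPLP0, RPLP1 and RPLP2. Rplp1 (gene at chr9:61913283-61914510, GRCm38.p6 as for all positions) measured 327 and 305 CPM in the control and 354 and 359 CPM in the conditioned medium libraries. Both conditioned medium values exceeded both control values, and the log2 fold change was 0.18 ± 0.04 (SE; edgeR adjusted p = 0.0095). Rplp0, at 1063, 1095, 1092 and 1081 CPM, differed by 0.01, with an interval of -0.08 to 0.10, and Rplp2, at 164, 141, 148 and 155 CPM, by -0.01 (-0.13 to 0.11). The 3 proteins are bound together in the stalk, and the difference between their fold changes was not tested.

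Rpl13a (gene at chr7:45125563-45128745) encodes a protein known outside the ribosome as a silencer of inflammatory messages in the GAIT complex. Its levels were 529 and 460 CPM in control and 541 and 566 CPM in conditioned medium. The second control library was the lowest by far, and the higher control nearly met the lower conditioned medium library; the log2 fold change was 0.16 ± 0.05 (edgeR adjusted p = 0.0384). Rpl18, a large-subunit protein (gene at chr7:45715467-45720835), measured 184, 198, 212 and 214 CPM, with no overlap, and differed by 0.16 ± 0.05 on the log2 scale (edgeR adjusted p = 0.0222). Rpl21 (gene at chr5:146832890-146837032) was lower, at 677 and 560 CPM in control and 518 and 556 CPM in conditioned medium. The second control library stood next to the higher conditioned medium library; the log2 fold change was -0.20 ± 0.06 (edgeR adjusted p = 0.0281).

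RPL5 and RPL11 form the 5S ribonucleoprotein, which is built into the large subunit and, when free, inhibits MDM2 and so stabilises p53. Neither passed the edgeR test. Rpl5 measured 1225, 1087, 1044 and 1098 CPM (log2 fold change -0.11, interval -0.22 to -0.00), and Rpl11 measured 246, 201, 215 and 229 CPM (-0.01, interval -0.14 to 0.13). Of the 6 listed members with roles in the p53 checkpoint (also Rpl23, Rpl26, Rps7 and Rps27l), 0 were called by edgeR, DESeq2 or limma-voom, and 2 had an unadjusted edgeR p under 0.05, Rpl5 and Rps27l. The median of the 6 was -0.07, and it was 0.03 without control replicate 1 and -0.17 without control replicate 2. The whole family shifted in the same directions. The replicate block and a robust spread each gave 1 lower call. Rps27l measured 48.1 and 41.4 CPM in control and 36.4 and 40.1 CPM in conditioned medium, and its log2 fold change came to -0.22 ± 0.08 (edgeR adjusted p = 0.0561). Its groups did not overlap, although the second control library lay only just above the second conditioned medium library.

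At the rim of the exit tunnel, where the new peptide leaves the ribosome and targeting factors dock, 0 of 8 members were called by edgeR or DESeq2 and 1 by limma-voom. That gene was Rpl35, at 401 and 359 CPM in control and 330 and 355 CPM in conditioned medium (log2 fold change -0.15; edgeR adjusted p = 0.0515). It was also the 1 member with an unadjusted edgeR p under 0.05. The median of the 8 was -0.01, and it was 0.10 without control replicate 1 and -0.14 without control replicate 2. Here too the whole family shifted in the same directions. The replicate block, a robust spread and thinned counts each gave 1 lower call. Rpl39, one of the smallest ribosomal proteins, measured 273 and 199 CPM in control and 230 and 252 CPM in conditioned medium (0.03, interval -0.15 to 0.21). Here the control libraries enclosed both conditioned medium libraries.

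Among the small-subunit symbols 3 of 35 were called higher and 1 lower, against 8.53% and 8.23% of all genes. Their median was 0.01. Rps14, a protein of the platform of the small subunit (gene at chr18:60774596-60778546), had the smallest p of the family. It measured 267 and 269 CPM in control and 300 and 310 CPM in conditioned medium. The replicates of each group lay close together and the groups were apart, by 0.19 ± 0.04 on the log2 scale (edgeR adjusted p = 0.00456), a rise of 1.14-fold. Rps19, the head protein most often mutated in Diamond-Blackfan anaemia, measured 215 and 206 CPM in control and 234 and 244 CPM in conditioned medium (gene at chr7:24884592-24889811). Its log2 fold change was 0.19 ± 0.05 (edgeR adjusted p = 0.00682). Rps21, one of the smaller small-subunit proteins (gene at chr2:180257379-180258444), measured 135, 120, 138 and 150 CPM. The first control library came close to the first conditioned medium library, and the log2 fold change was 0.18 ± 0.06 (edgeR adjusted p = 0.0351).

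Rps19 was the 1 called gene among 14 proteins of the small-subunit head, the part that moves over the message. That is 7.14%, against 8.53% of all genes called higher, and the median of the 14 was 0.05. Rps29 measured 253 and 170 CPM in control and 231 and 248 CPM in conditioned medium; its log2 fold change was 0.18, and its interval, -0.03 to 0.39, includes 0. Rps6, the protein phosphorylated by S6 kinase downstream of mTORC1, measured 766, 688, 679 and 682 CPM (-0.10, interval -0.20 to 0.00). Rpsa, also known as the laminin receptor, measured 1233, 1208, 1134 and 1151 CPM (-0.09, interval -0.18 to -0.01), with an edgeR adjusted p of 0.126.

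**Figure D2:**
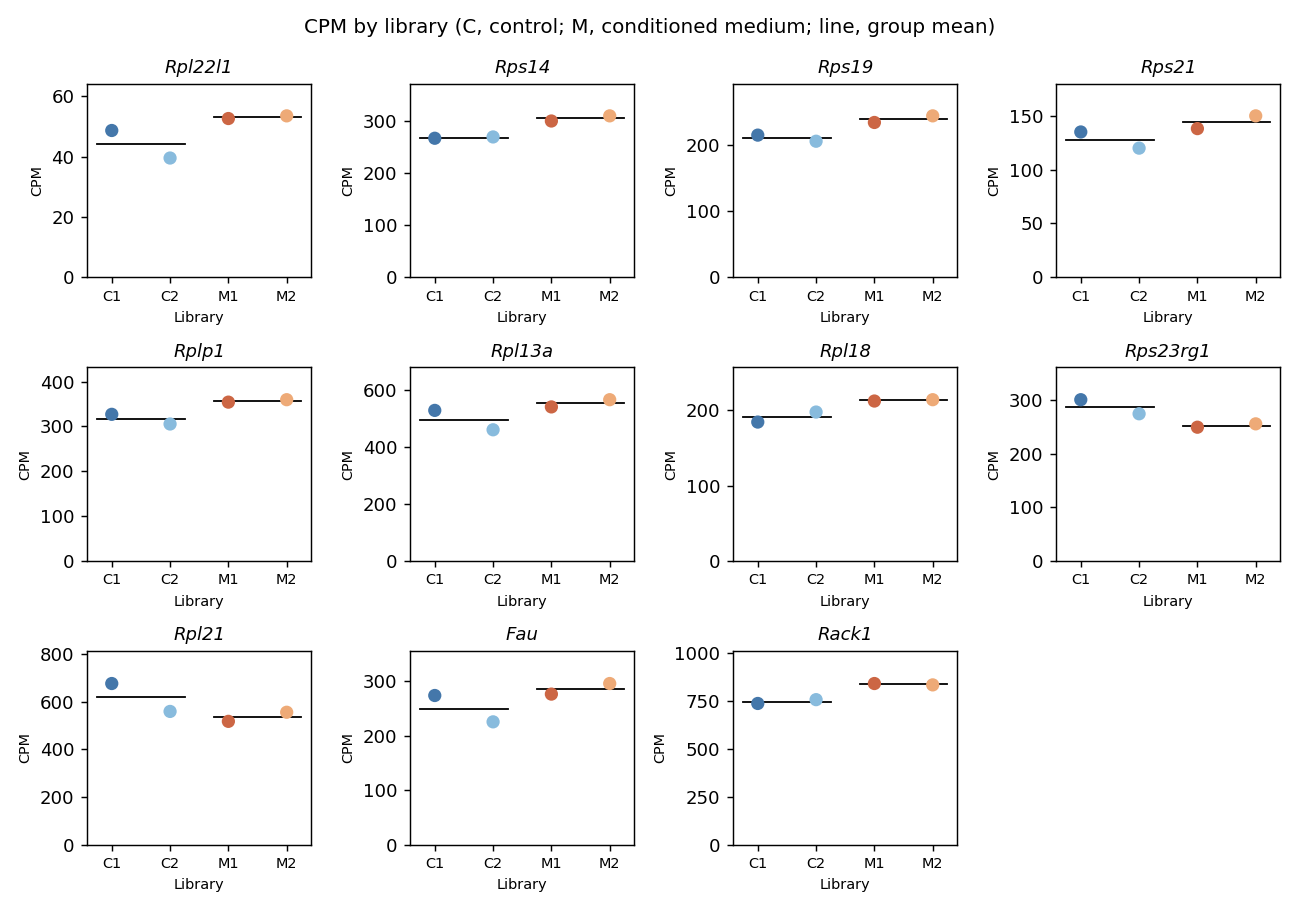
CPM in each library (vertical axis, from 0) for the 9 ribosomal protein genes that passed the edgeR test and for Fau and Rack1; C1 and C2 are control, M1 and M2 conditioned medium, and lines are group means (n = 2). The rises and falls are small against the level, from 1.12-fold for Rpl18 to 1.204-fold for Rpl22l1 among the higher genes.

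Of 5 tested genes on the paralog list, 1 was called higher, with 0 lower at the adjusted and 1 (Rps27l) at an unadjusted edgeR p under 0.05; their median was 0.08. Rpl22l1 (gene at chr3:28805508-28807424) encodes a paralog of RPL22 that RPL22 is known to repress. It measured 48.7 and 39.5 CPM in control and 52.6 and 53.5 CPM in conditioned medium. Its rise of 0.27 ± 0.08 on the log2 scale (1.204-fold; edgeR adjusted p = 0.0200) was the largest in the family. Rpl22 itself measured 188, 162, 171 and 184 CPM and differed by 0.03 (interval -0.10 to 0.15). Rpl36al, at 177, 145, 152 and 154 CPM, differed by -0.07, and Rpl36a, at 208, 162, 155 and 171 CPM, by -0.18 (edgeR adjusted p = 0.115). Rpl7l1, at 73.9, 70.9, 76.4 and 76.3 CPM, differed by 0.08 (interval -0.04 to 0.19). Rps27, at 253, 203, 220 and 240 CPM, differed by 0.01 (interval -0.13 to 0.16), where Rps27l had the lowest fold change of the family.

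Rps23rg1, a retroposed copy of Rps23, was called lower, at 301 and 275 CPM in control and 249 and 256 CPM in conditioned medium (log2 fold change -0.19 ± 0.05; edgeR adjusted p = 0.00923; gene at chr8:3567998-3584776). Rps23 measured 475, 404, 389 and 409 CPM, and differed by -0.14 on the log2 scale (edgeR adjusted p = 0.103). Reads of near-identical copies may be counted at either place or at both, and the sources used here do not state how such reads were counted, so the values of both are uncertain. Several pseudogene rows held counts. The row of Rpl15-ps6 held 5839, 5230, 5032 and 6853 counts, and 5 copies of Rps12 on the X chromosome held nearly equal counts, such as 7, 12, 12 and 25 for Rps12-ps11 and 7, 10, 10 and 23 for Rps12-ps13. The 30 tested pseudogenes with a -ps symbol had a median of 0.00. By edgeR 1 was called higher (Rps15a-ps4, 0.15), which is 3.33% against 8.53% of all genes. Called lower were 2 (Rps12-ps24, -0.24, and Rpl5-ps2, -0.16), which is 6.67% against 8.23%. Without control replicate 1 these counts were 6 and 3, without control replicate 2 they were 1 and 10, and without either conditioned medium library both were 0.

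In most ribosomal protein genes the gap within the control pair exceeded the difference between the groups. The log2 ratio of the first over the second control library had a median of 0.16 over the 87 genes and was above 0 in 81 of them. Over all tested genes that median was -0.00, and over 1988 other genes with at least 100 CPM it was 0.01. Control replicate 1 had the highest level of the 4 libraries in 57 of the 87 genes, and control replicate 2 had the lowest in 59. Both counts were taken over these genes only, so no share over all genes stands beside them. Within the conditioned medium pair the median log2 ratio was -0.05, with 5 genes above 0. The gap between the controls exceeded the difference between the groups in 69 of 87 genes (79.3%, against 43.7% of all genes). In 38 genes (43.7%, against 11.99% of all genes) both conditioned medium libraries lay between the 2 controls.

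**Figure D3:**
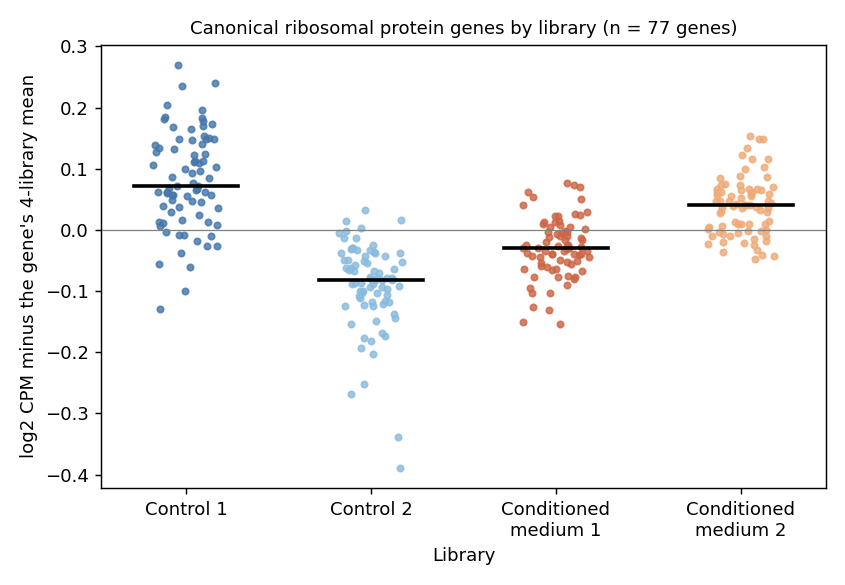
Log2 CPM minus the gene's mean over the 4 libraries (vertical axis) for the 77 canonical genes in each library; each point is a gene and the black lines are medians. Control 1 lies mostly above and control 2 mostly below the mean, and the medians of both conditioned medium libraries lie between them.

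The gap varied with the length of the coding sequence. Across the 77 canonical genes the log2 ratio of control 1 over control 2 had a Pearson r of -0.71 and a Spearman rho of -0.68 with log2 coding length, and the ratio of conditioned medium 1 over 2 had 0.73 and 0.74. These are descriptions across genes that share the same 4 libraries, and genes are not independent replicates. The ratio between groups had -0.22 and -0.15. In 24 genes with under 400 nt of coding sequence the median control ratio was 0.25, in 30 genes of 400 nt to under 600 nt it was 0.14 and in 23 genes of 600 nt or longer it was 0.07. Rpl38 had the largest control ratio, 0.58, at 169 and 113 CPM, with 140 and 157 CPM in conditioned medium. Rps29 followed at 0.57, then Rpl39 at 0.46 and Rps28 at 0.42. Among other abundant genes the same length classes had medians of 0.08 (44 genes), 0.06 (127 genes) and 0.01 (1817 genes). The part of RNA quality or library preparation in this was not tested.

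**Figure D4:**
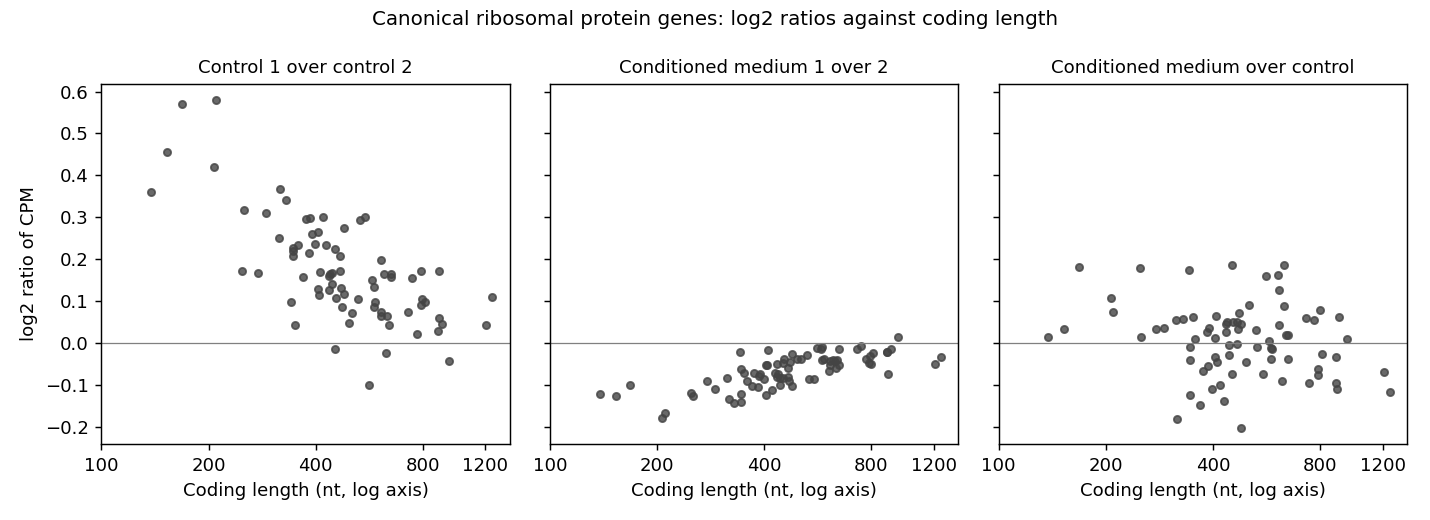
Log2 ratio of CPM (vertical axis) against coding length in nt (horizontal log axis) for the 77 canonical genes, for control 1 over control 2, conditioned medium 1 over 2, and conditioned medium over control. The control ratio falls with length (r = -0.71), the conditioned medium ratio rises (r = 0.73) and the ratio between groups has r = -0.22.

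Which genes were called depended on single libraries. Without control replicate 1, edgeR called 35 genes higher and 2 lower (42.5% of the family, against 17.1% of all genes), with a median log2 fold change of 0.09. Without control replicate 2 it called 6 higher and 37 lower (49.4%, against 21.9% of all genes), with a median of -0.08. Without either conditioned medium library it called 0, with 9 and 11 at an unadjusted p under 0.05, while 808 and 569 of all genes were called. Of the 14 head proteins, 11 were called higher without control replicate 1, and 1 higher and 3 lower without control replicate 2. Rpl5 and Rpl11 were both called lower without control replicate 2, and Rpl11 was called higher without control replicate 1. Rps14, Rps19, Rplp1 and Rps23rg1 were called in 13 of 15 alternative analyses, all but those without a conditioned medium library. Rpl18 and Rpl22l1 were called in 11, and Rpl13a, Rps21 and Rpl21 in 9. Without control replicate 1 the fall of Rpl21 was -0.06 (edgeR adjusted p = 0.271) and the rise of Rpl18 was 0.11 (0.0731). Without control replicate 2 the log2 fold changes were 0.07 for Rpl13a (0.162), 0.10 for Rps21 (0.163) and 0.13 for Rpl22l1 (0.232); all values in brackets are edgeR adjusted p. DESeq2 called 3 higher and 1 lower.

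Genes with longer and shorter pyrimidine runs had close medians. Of the 45 canonical genes with a run of at least 8 bases, 4 were called higher and 0 lower by edgeR (5 higher and 6 lower at an unadjusted p under 0.05), with a median log2 fold change of 0.01. Of the 12 with a shorter run, 0 were called (1 at an unadjusted p under 0.05), and their median was 0.02. Of all genes tested, edgeR called 8.53% higher and 8.23% lower, and their median was 0.00. With only 12 genes in the shorter group, 0 calls cannot be told apart from that background.

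Of the ribosomal components outside the naming rule, Fau and Rack1 were called higher by edgeR. Fau, a ubiquitin-like fusion that gives eS30, measured 273 and 225 CPM in control and 276 and 295 CPM in conditioned medium (log2 fold change 0.20 ± 0.06; adjusted p = 0.0356). Rack1, the scaffold protein of the small-subunit head, measured 735, 755, 839 and 832 CPM (0.17 ± 0.04; adjusted p = 0.00819). Neither was called without either conditioned medium library, nor was Fau without control replicate 2 (0.07; edgeR adjusted p = 0.267). Fau was also not called with a robust estimate of the spread, with no count filter, with thinned counts or by DESeq2.

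Ribosome biogenesis factors, which build and modify the subunits in the nucleolus, included 46 tested genes. Of these, 12 were called lower by edgeR (26.1%, against 8.23% of all genes) and 0 higher (21 lower and 0 higher at an unadjusted p under 0.05), with a median log2 fold change of -0.16. The box C/D protein Nop58 measured 65.1 and 61.8 CPM in control and 48.2 and 47.5 CPM in conditioned medium (-0.41 ± 0.06; edgeR adjusted p = 7.06e-05). Ncl, which encodes nucleolin, measured 506, 434, 389 and 380 CPM (-0.29 ± 0.05; edgeR adjusted p = 0.000794), and Pno1, a small-subunit maturation factor, 50.4, 43.2, 38.2 and 37.8 CPM (-0.30 ± 0.07; edgeR adjusted p = 0.00771). The count of lower calls was 7 without control replicate 1, 18 without control replicate 2, 1 without either conditioned medium library and 2 by DESeq2, and the median stayed between -0.18 and -0.12. By DESeq2, or without either conditioned medium library, the share of these 46 factors called in both directions together was not above the background. DESeq2 called 7.45% of all genes. The RNA polymerase I machinery, which transcribes ribosomal RNA, included 12 tested genes. Of these, 1 was called higher by edgeR (Polr1c, 0.27), which is 8.33% against 8.53% of all genes, and 0 lower. At an unadjusted edgeR p under 0.05 there were 2 lower. Polr1c was not called without either conditioned medium library, with no count filter or by DESeq2.

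The other messages with a TOP tract, mostly elongation and initiation factors, had a median of -0.03 over 20 genes. By edgeR 3 were called lower (Npm1, -0.15, Eif2s3x, -0.15, and Nap1l1, -0.13), which is 15% against 8.23% of all genes, and 0 higher. At an unadjusted edgeR p under 0.05 there were 6 lower and 0 higher. Without control replicate 1, without either conditioned medium library, with upper-quartile scaling, with no count filter and by DESeq2, 0 of them were called lower, and with thinned counts 1; without control replicate 2 there were 10. The snoRNA host genes, whose introns carry guides for ribosomal RNA modification, had 2 of 12 called higher (Snhg7, 0.69, and Zfas1, 0.36). That is 16.7%, against 8.53% of all genes, and 0 were called lower (1 at an unadjusted p under 0.05). Snhg7 was not called without either conditioned medium library or by DESeq2, nor Zfas1 without conditioned medium replicate 2 (0.29; edgeR adjusted p = 0.127). Gas5 measured 232, 182, 169 and 190 CPM (-0.20; edgeR adjusted p = 0.0767); the value was -0.01 without control replicate 1 and -0.36 without control replicate 2, where it was called (edgeR adjusted p = 1.64e-14), as it was with the replicate block (0.00175). Without control replicate 2 the list had 3 lower calls. Of 18 regulators of TOP messages, edgeR called Rptor higher (0.21), which is 5.56% against 8.53% of all genes. Eif4e (-0.22) and Larp4 (-0.17) were called lower, which is 11.1% against 8.23%. Larp1 differed by -0.06 (edgeR adjusted p = 0.411). In the MYC network 3 of 10 were called higher (30%, against 8.53% of all genes), namely Mxd1 (0.41), Mxi1 (0.39) and Mxd4 (0.20). These are MAX partners that oppose MYC. Other listed MAX partners, Mnt (0.13), Mxd3 (-0.04), Mga (-0.05) and Mycn (-0.34), were not called, Mycn with an unadjusted edgeR p of 0.0175. Myc itself measured 51.3, 53.6, 51.1 and 52.4 CPM (-0.02, edgeR adjusted p = 0.878). Without either conditioned medium library 0 regulators and 0 MYC network genes were called. DESeq2 called 0 regulators and 1 MYC network gene, and with no count filter edgeR called 1 MYC network gene. Of 78 mitochondrial ribosomal protein genes 0 were called by edgeR, DESeq2 or limma-voom, where edgeR called 16.8% of all genes. At an unadjusted edgeR p under 0.05 there were 1 higher and 9 lower, and the median was -0.04. The smallest p was that of Mrps31 (-0.34, edgeR adjusted p = 0.0650). Without control replicate 2, edgeR called 1 higher and 8 lower, and with the replicate block 1 lower, Mrps31 (adjusted p = 0.0457).

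**Figure D5:**
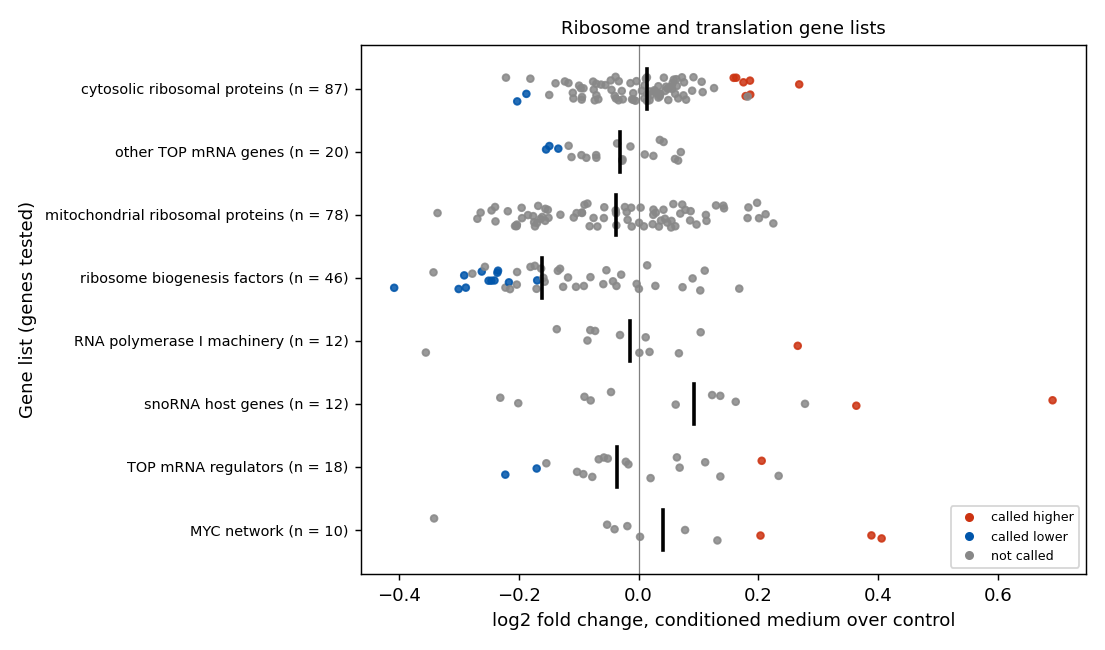
Log2 fold change of conditioned medium over control (horizontal axis) for each tested gene of the cytosolic ribosomal proteins and of 7 related lists; black lines are medians and coloured points passed the edgeR test. The 87 ribosomal protein genes centre on 0.01, and the 46 biogenesis factors on -0.16 with 12 called lower.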

How the data were processed

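Libraries were prepared from total RNA with a TruSeq RNA kit, per the labels' protocols. The deposited values are raw read counts, 1 per gene and library, named by Entrez identifiers. STAR 2.5.2b, featureCounts, Subread 1.4.6-p1 and mm10 are named, per the submitters' processing notes; the sources used here do not state settings or annotation. Symbols came from RefSeq (GRCm38.p6) for 25275 identifiers; 1904 without a match (6.31% of counts) stayed in the library sizes.

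Counts were tested with edgeR 4.0.16 in R 4.3.3: filterByExpr (minimum count 10, total 15), TMM scaling (0.987 to 1.01), quasi-likelihood test, two-sided, Benjamini-Hochberg over 13897 genes, with a biological coefficient of variation of 3.58% and 2 residual degrees of freedom. CPM values of single genes are TMM-scaled counts. The marker sums and the CPM of 3 counts are scaled to library totals without TMM. Fold changes are fitted values; 95% intervals come from the fit's standard errors. Transcript and coding lengths are from GENCODE vM21. Samples were grouped by the treatment label. The procedure was tested on simulated data. Those data held no shift shared by many genes of a library, so they do not cover the gap within the control pair. Floors of 3 counts cover counting error only.

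Named genes were, among the ribosomal protein genes, up to 10 called with the largest rise and fall, 21 set members (paralog pairs, P stalk, Rpsa, Rps6, Rpl5, Rpl11 and Rpl13a), the 5 highest and 5 lowest per kilobase, and from each list the 2 called genes with the largest change or the smallest p. Rps15a, Rps20, Rps23, the pseudogenes, Rps28, Rps29, Rpl35, Rpl38, Nap1l1, Larp1, Larp4, Gas5, Mxd4 and Myc were named after their values were seen. So were Mnt, Mxd3, Mga and Mycn. Counts include some genes that are not reported here. The members and lists were chosen with earlier results of these data known. Alternatives were other scalings (RLE, upper quartile, library totals, non-member genes), other filters, a replicate block, a robust spread, each library left out, DESeq2 1.42.0, limma-voom (limma 3.58.1), thinned counts and canonical genes only (Rps23rg1 also left out there).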

Additional observations from a re-analysis of the deposited data

How the results depend on the processing

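Under RLE, upper-quartile and library-total scaling, scaling from other genes, a minimum of 1 CPM in 2 libraries, a robust spread and thinned counts, the counts of genes called higher (6 to 8) and lower (2 to 3) stayed within 1.5 times those reported, and the median log2 fold change stayed between 0.01 and 0.03. Lower calls numbered 1 with no count filter, 6 with the replicate block, 4 by limma-voom and 1 for canonical genes only. DESeq2 gave 3 higher and 1 lower. With each library left out in turn, higher calls ranged from 0 to 35, lower calls from 0 to 37 and the median from -0.081 to 0.086; this takes the lone library to vary as much as the other group's pair. Without control replicate 1, Rpl11 (0.15) and Rpl23a (0.10) turned positive and were called; without control replicate 2, Rpl39 (-0.18) and Rps27 (-0.13) turned negative and were called. The other ends of these ranges were -0.15 for Rpl11 and -0.10 for Rpl23a without control replicate 2, and 0.28 for Rpl39 and 0.18 for Rps27 without control replicate 1. The cause was not tested. Over 48 named genes and 15 settings, 605 of 720 values stayed on their side of the threshold without a reversal of a called value; 27 changed sign with neither value called.

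Replicate numbers are shared by both groups, and the labels do not say whether same-numbered libraries were handled together. The deviations of same-numbered libraries correlated at -0.05 over 9635 genes. With 1 pair of replicates per group this value cannot show whether the numbers pair the libraries. The replicate block gave 8 higher and 6 lower calls. The difference in share of counts (-0.02 percentage points) was -0.01 and -0.03 with other denominators. With 2 residual degrees of freedom, 1 library can decide a call. The control pair differed 4.70 times, and the conditioned medium pair 1.51 times, as much as counting error alone gives (chi-square per degree of freedom).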
